A study of Nannochloropsis oceanica with 44 samples.

Results

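In the alga Nannochloropsis oceanica CCMP1779, 66 genes stood about 10-fold higher at 6 h of nitrogen resupply than at 72 h of deprivation. By 72 h of resupply these genes were back near their values at 6 h of deprivation, the earliest time with a value. They were picked from the 798 genes of the authors' cluster 1, out of 2489 genes in the 4 deposited tables, by their measured values. These 2489, the 66 included, are the called genes below. The authors had already selected them by a test, so shares of them are not shares of the genome. A gene entered the set where its log2 value at 6 h of resupply (NR) exceeded that at 72 h of deprivation (N-) by more than 3. Its value at 72 h NR also had to lie between -1 and 1 of that at 6 h N-, its 72 h N- value at most 1 above and its 24 h N- value at most 1 below that at 6 h N-. The burst and the return are therefore how the genes were chosen, and no part of them is a finding.

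The alga is wild type and was grown as a shaken liquid culture in F/2 medium under continuous light. For N-, cells were washed and moved to medium without nitrogen and sampled after 6, 12, 24 and 48 h and again after 72 h. For NR, cells that had spent 72 h without nitrogen were put back into medium with nitrogen and sampled at the same 5 times, so every NR culture shares that history. RNA sequencing gave 44 libraries, 4 for each of these 10 groups and 4 for the start of deprivation (0 h), which has no column in the tables and was not analysed here. The tables hold 1 value per gene and time point, which joins the libraries of that time. Library depths and replicate values are thus not part of what was analysed, the values below stand without errors or tests, and the spread between cultures is unknown. "More than 2-fold" means a difference above 1 on the log2 scale, the scale being inferred from the values.

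Algae without nitrogen stop dividing, dismantle part of their photosynthetic machinery and store carbon as oil, and Nannochloropsis is studied for this oil. When nitrogen returns, cells take it up, rebuild protein and pigment, use up the stored oil and divide again. In the yeast Saccharomyces cerevisiae, the early genes after a nutrient is restored are known to include many for making ribosomes. The tables pair no identifier with a name, and 0 of the 2489 identifiers occur in the reference table used for names, so which functions the 66 genes have is not known here. An identifier gives the gene finder (augustus or snap), the prefix maker for a model that rests on evidence, the contig after nanno_ and a gene number on that contig.

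The burst, the 6 h NR value minus the 72 h N- value, had a median of 3.28 over the 66 genes (quartiles 3.13 and 3.61), which is 9.74-fold. The largest was that of maker-nanno_4613-augustus-gene-0.24, with 12.46 at 6 h NR and 7.80 at 72 h N-, a difference of 4.65 or 25.2-fold. The gene augustus_masked-nanno_1681-abinit-gene-0.1 followed with 11.77 at 6 h NR and 7.27 at 72 h N-. Most bursts lay close to the limit of 3. Just inside it were maker-nanno_926-augustus-gene-0.30 with 3.004 and maker-nanno_5442-augustus-gene-0.54 with 3.008, and just outside were maker-nanno_100-snap-gene-0.16 with 2.98 and augustus_masked-nanno_714-abinit-gene-0.0, also with 2.98. Past the limit of 3 were 2.46% of the other cluster 1 genes and 3.42% of all called genes. The latter are 85 genes, and 66 of them are the burst genes themselves. More than 2-fold higher at 6 h NR than at 72 h N- were 82.9% of the other 732 cluster 1 genes and 28.8% of all called genes.

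Of the 84 cluster 1 genes with a burst above 3, 18 were left out by the other conditions. The value at 72 h NR was more than 2-fold above that at 6 h N- in 14 of them and more than 2-fold below it in 0. In 6 the 24 h N- value was too low, in 1 the 72 h N- value was too high, and 3 missed more than 1 condition. Larger bursts were found among these 18, up to 5.93, so the set does not hold the largest bursts of the cluster.

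The deposited levels of the burst genes covered a wide range. No correction for transcript length is stated, so levels of different genes may not be comparable. At 6 h NR the lowest was snap_masked-nanno_2338-abinit-gene-0.7 with 7.64 and the highest were maker-nanno_558-augustus-gene-0.48 with 18.45 and augustus_masked-nanno_1014-abinit-gene-0.9 with 18.28. The value 18.45 is also the highest of any called gene at that time. The median over the burst genes went through 10.95, 11.07, 11.32, 11.12 and 10.93 over the 5 N- times in order, and through 14.26, 14.17, 13.15, 12.75 and 11.57 over the 5 NR times. In the other cluster 1 genes it was 10.02 at 6 h N- and 10.40 at 72 h N-, then 12.18, 11.89, 11.44, 10.76 and 10.28 over the NR times.

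**Figure D1:**
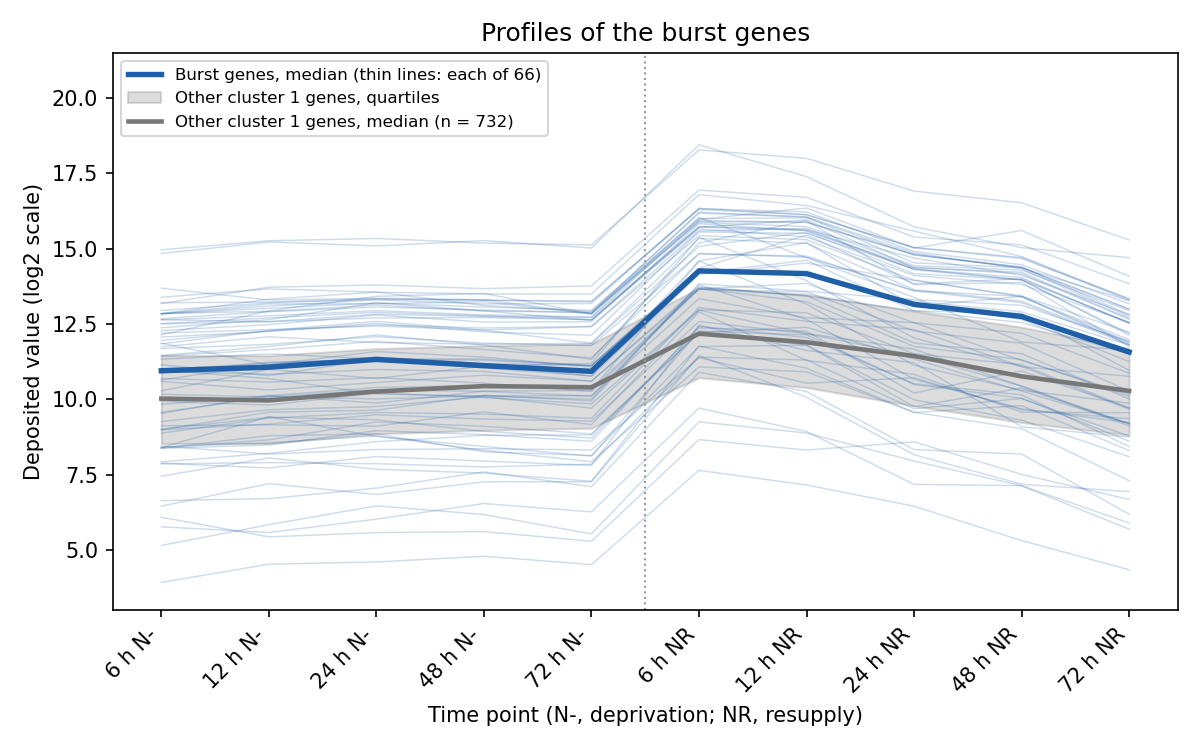
Deposited log2-scale values (vertical axis) at the 10 time points (horizontal axis) for each of the 66 burst genes (thin blue lines) with their median (thick blue line), and for the other 732 cluster 1 genes the median (grey line) and the quartiles (grey band). The blue median is nearly level over the N- times shown, between 10.93 and 11.32, and stands at 14.26 at 6 h NR.

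From 6 h to 72 h N- the burst genes were close to level, and the first 6 h of deprivation could not be seen. Their values over the 5 N- times spanned a median of 0.55, against 0.70 in the other cluster 1 genes and 1.26 in all called genes. The conditions on 24 h and 72 h N- limit this span, but no condition uses 12 h or 48 h N-. Those times did enter the authors' clustering, through which the genes were also chosen. At 12 h N- 1 of 66 genes was more than 2-fold from its 6 h N- value (3.83% of the other cluster 1 genes and 3.33% of all called genes), and at 48 h N- 3 were (13.9% and 33.7%). The share at 12 h is near that of the called genes and says nothing particular about the set. The span passed 1 in 4 burst genes, against 25.0% of the other cluster 1 genes and 59.1% of all called genes, and was largest, 1.37, in maker-nanno_620-augustus-gene-0.52. The furthest above 6 h N- at 72 h N- was augustus_masked-nanno_796-abinit-gene-0.1, at 9.95 against 8.98, and the furthest below was augustus_masked-nanno_913-abinit-gene-1.39, at 10.00 against 10.96. Taken over all called genes, the median at 48 h N- lay 0.51 under that at 6 h N-. Set against this shift, 19 of the burst genes (28.8%) were more than 2-fold higher at 48 h N-. Beside them stood 44.3% of the other cluster 1 genes and 17.0% of all called genes. At 72 h N-, relative to a shift of -0.84, 28 burst genes (42.4%) were more than 2-fold above 6 h N-. So were 74.6% of the other cluster 1 genes and 29.7% of all called genes. How level the burst genes were thus depends on the scaling.

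At 6 h NR every one of the 66 genes stood above its own highest N- value by at least 2.28, with a median of 2.97. The rule strongly favours this, though it sets no upper limit on 12 h, 24 h or 48 h N-. More than 2-fold above the highest N- value were 77.2% of the other cluster 1 genes and 25.4% of all called genes. The lowest of a gene's 10 values fell in deprivation for 59 burst genes, most often at 6 h N- (34) or 72 h N- (17), and at 72 h NR for 7. The shares for the other cluster 1 genes and all called genes were not computed, so these counts only describe the set.

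The high level lasted through 12 h NR in most of the genes, as it did in most of the other cluster 1 genes. It is thus not particular to the set. The highest value fell at 6 h NR in 53 genes (67.6% of the other cluster 1 genes and 22.0% of all called genes) and at 12 h NR in 13 (21.7% and 6.99%). The 12 h NR value was within 2-fold of the 6 h NR value in 58 of 66, beside 93.6% of the other cluster 1 genes and 75.4% of all called genes. It was more than 2-fold lower in 7, beside 2.46% and 13.8%. The median share of the burst left, taken as the NR value minus the 72 h N- value over the burst on the log2 scale, was 95.0% at 12 h NR (quartiles 87.6% and 97.9%).

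In the 13 genes that were highest at 12 h NR, the 12 h value exceeded the 6 h value by 0.03 to 1.10. The largest excess was in maker-nanno_812-augustus-gene-0.33, with 11.86, 11.14, 11.40, 11.19 and 11.12 over the 5 times of N- and 14.35, 15.45, 13.83, 14.00 and 12.54 over those of NR. Another, augustus_masked-nanno_750-abinit-gene-0.7, had 15.93 at 12 h NR and 15.19 at 6 h NR. The median share of the burst left was 62.0% at 48 h NR in these 13 genes and 43.0% in the 53 that were highest at 6 h NR. At the other end, snap_masked-nanno_5280-abinit-gene-0.6 kept 57.0% at 12 h NR, with 11.29 at 12 h NR and 12.90 at 6 h NR, and maker-nanno_620-augustus-gene-0.52 kept 58.1%.

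The deposited values then went down in 2 steps, separated by an interval with little difference. At 24 h NR 50 of the 66 genes were more than 2-fold below 12 h NR and 0 were above it by that much, with a median difference of -1.30. More than 2-fold lower were 24.9% of the other cluster 1 genes and 10.2% of all called genes. Between 24 h and 48 h NR the median difference was -0.39, and 11 genes were more than 2-fold lower, beside 15.0% and 20.0%. At 72 h NR 55 of the 66 were more than 2-fold below 48 h NR, with a median of -1.34, beside 22.5% of the other cluster 1 genes and 11.4% of all called genes. The rule holds 72 h NR near 6 h N- and so favours a low last value, which makes this last step and its distance from the cluster partly a product of the choice of genes. Both steps passed 2-fold in 44 genes, beside 10.4% of the other cluster 1 genes and 4.82% of all called genes. At each of the 4 NR times after 6 h 48 genes were lower than at the time before, beside 52.6% and 17.4%. A burst above 3 with an end near 6 h N- favours a large fall over the NR times, though not when it comes. The counts for the step from 12 h to 24 h NR and for both steps are thus also partly a product of the choice. The intervals are unequal, 6 h and 12 h for the first steps and 24 h for the others.

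**Figure D2:**
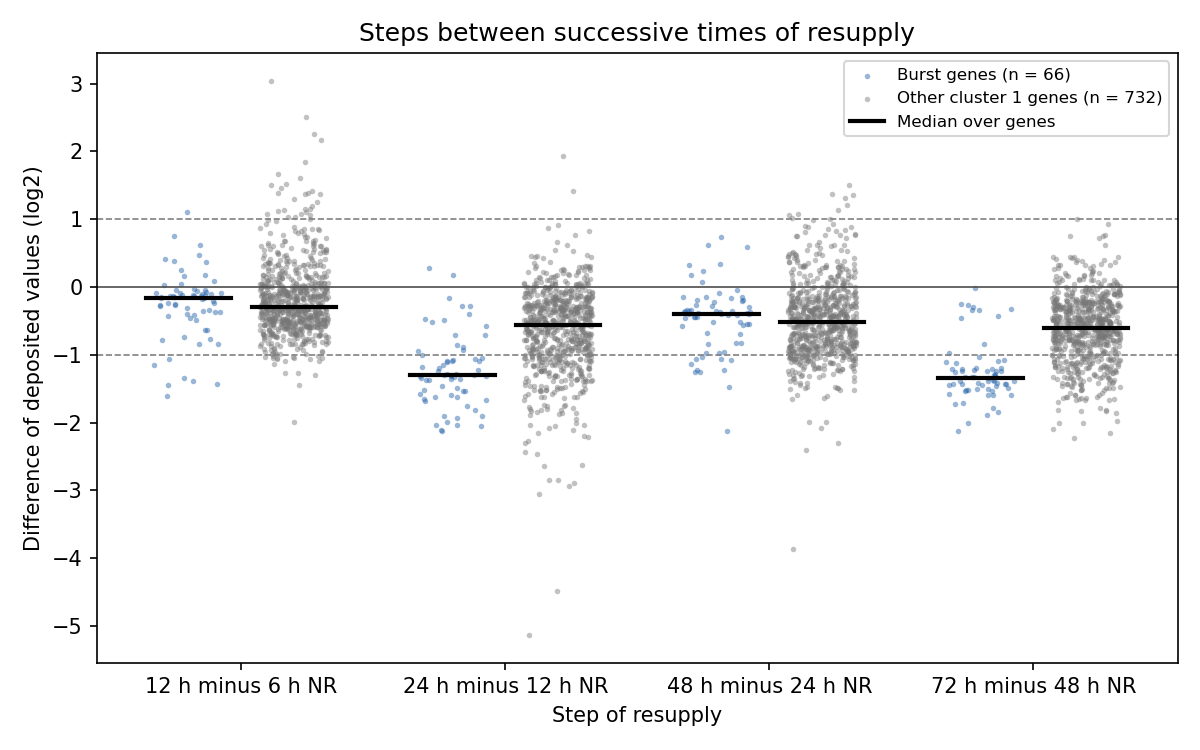
Differences of deposited log2 values between successive NR times (vertical axis) for the 66 burst genes (blue points) and the other 732 cluster 1 genes (grey points), with the median over genes as a black bar and 2-fold as dashed lines. From left to right the blue medians are -0.16, -1.30, -0.39 and -1.34.

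The size of the first of these steps depends on how the columns are scaled. Taken over all called genes, the median at 24 h NR lay 1.76 over that at 12 h NR, and relative to this shift all 66 burst genes were more than 2-fold lower at 24 h, with a median of -3.07. More than 2-fold lower on that scale were 99.3% of the other cluster 1 genes and 46.8% of all called genes, so the count there is at the level of the cluster. The step from 48 h to 72 h NR moved less, with 50 genes more than 2-fold lower relative to a shift of -0.14, beside 16.0% of the other cluster 1 genes and 8.04% of all called genes.

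A moderate elevation remained between the steps in the values as deposited. At 24 h NR 59 of the 66 were still more than 2-fold above 72 h N-, with a median difference of 1.87, beside 51.8% of the other cluster 1 genes and 61.3% of all called genes. At 48 h NR 54 were, with a median of 1.47, beside 28.8% and 54.6%. Relative to the median of the called genes, which stood 1.35 and 1.06 above its 72 h N- value at these times, the counts were 12 (18.2%) and 11 (16.7%). On that scale 7.51% and 8.06% of the other cluster 1 genes were, and 30.6% and 29.5% of all called genes, so the burst genes lay below the share of all called genes. A burst above 3 makes such limits easier to pass than the median burst of 1.82 in the other cluster 1 genes. The gaps to those genes are thus partly a product of the choice of genes. As deposited, the median share of the burst left at 24 h and 48 h NR was 59.1% and 45.7%. It was 56.2% and 28.6% in the 607 other cluster 1 genes with a burst above 1. Against 6 h N-, 65 genes were more than 2-fold higher at 24 h NR, with a median of 2.02, beside 75.5% of the other cluster 1 genes and 47.5% of all called genes. That count was 58 relative to a shift of 0.51, beside 44.3% and 29.7%. At 72 h NR 8 genes were more than 2-fold above 72 h N- and 1 was below, beside 9.70% and 12.2% of the other cluster 1 genes and 47.2% and 7.87% of all called genes. Relative to a shift of 0.92 these became 1 above and 23 below (34.8%). On that scale 3.28% of the other cluster 1 genes were above and 59.7% below, and 27.3% of all called genes were above and 29.7% below.

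At matched hours, NR was more than 2-fold above N- in all 66 genes at 6 h, with a median of 3.52. The rule used both of these times, so the choice of genes strongly favours this count. It does not fully fix it, since the rule sets no lower limit on 72 h N- against 6 h N-. At 12 h NR was also more than 2-fold above N- in all 66, with a median of 3.02. The limits of the rule did not use 12 h, but the authors' clustering did, so this count is not independent of the choice either. Among all called genes 30.0% were at 6 h and 31.3% at 12 h, and among the other cluster 1 genes 92.3% and 95.1%. At 24 h 60 were, with a median of 1.63, beside 56.7% of the other cluster 1 genes and 1094 of the 2489 called genes. At 48 h 52 were and 1 was more than 2-fold below, with a median of 1.33, beside 26.5% and 5.60% of the other cluster 1 genes and 47.9% and 8.40% of all called genes. A burst above 3 makes these limits easier to pass too. The gaps above the other cluster 1 genes are thus partly a product of the choice. Relative to the called genes the 24 h count was 41 (62.1%), beside 25.3% of the other cluster 1 genes and 22.3% of all called genes. On the same scale the 48 h counts were 12 above (18.2%) and 2 below. Of the other cluster 1 genes 8.61% were above and 21.7% below at 48 h. Of all called genes 21.8% were above and 18.3% below, so the share above at 48 h is near that of all called genes.

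The genes differed among themselves in how much of the burst was left at the later NR times. At 24 h NR the median share was 59.1% (quartiles 50.3% and 65.0%), the lowest 17.0% and the highest 97.8%. Between 50% and 70% was left in 39 genes, more than 70% in 11 and less than 35% in 9. In other cluster 1 genes with a burst above 1 (607 genes) the median was 56.2%, with wider quartiles of 39.0% and 82.5%. At 48 h NR the burst genes were spread more widely, from -29.2% to 89.2%, with a median of 45.7% (quartiles 36.7% and 53.4%), against a median of 28.6% in those 607. Relative to the called genes the median of the burst genes was 14.8% at 24 h NR and 11.8% at 48 h NR.

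**Figure D3:**
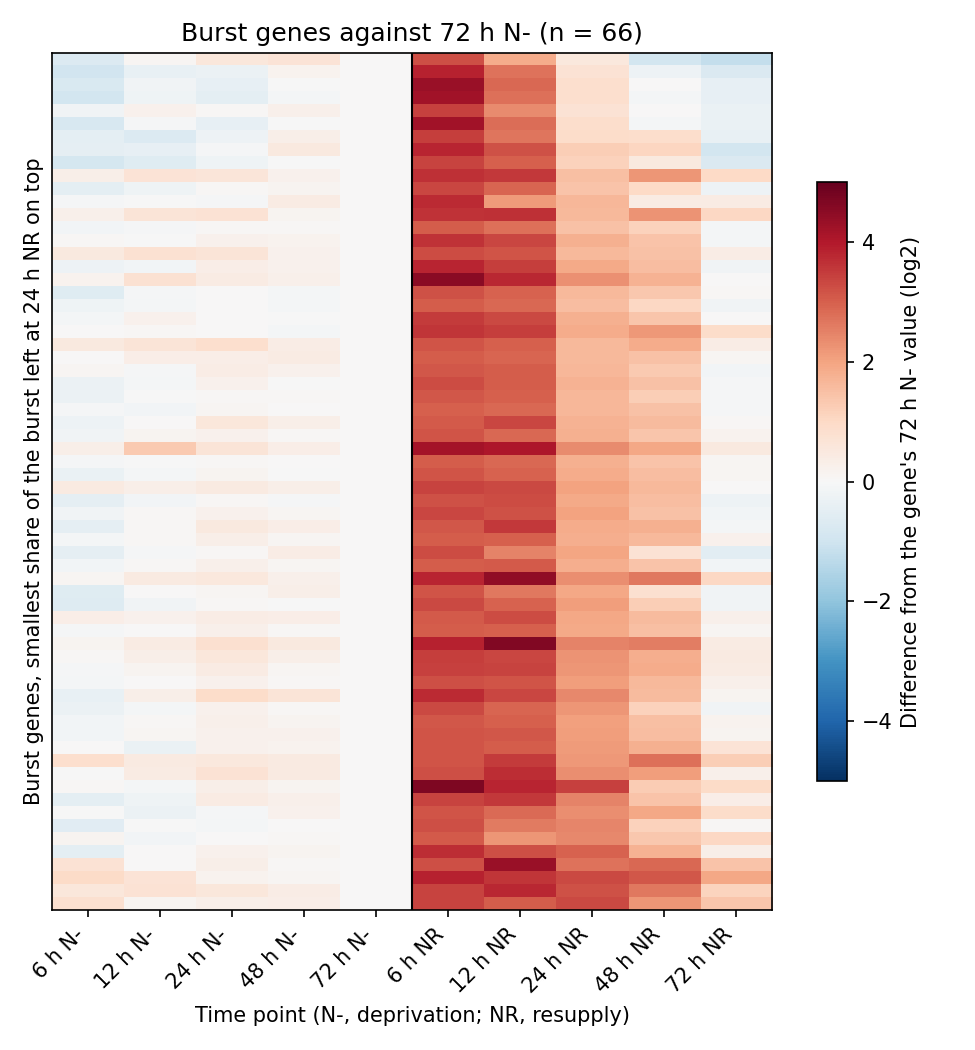
Difference of each value from the gene's own 72 h N- value (colour, log2) at the 10 time points (horizontal axis) for the 66 burst genes, 1 row each, ordered from the smallest share of the burst left at 24 h NR (17.0%, top) to the largest (97.8%, bottom). The top rows are already pale at 24 h NR, and the bottom rows keep the colour of 6 h NR.

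The gene that kept most at 24 h NR was augustus_masked-nanno_123-abinit-gene-0.8. It had 6.08, 5.43, 5.57, 5.61 and 5.28 over the N- times and 8.66, 8.31, 8.59, 7.50 and 6.67 over the NR times, and so was level from 6 h to 24 h NR. Next came maker-nanno_6341-augustus-gene-0.10, with 14.15, 14.52, 13.95, 13.40 and 11.90 over the NR times and 10.77 at 72 h N-. At 48 h NR maker-nanno_812-augustus-gene-0.33 and augustus_masked-nanno_617-abinit-gene-0.6 kept 89.2% and 88.3%. The second of these was higher at 48 h NR (15.61) than at 24 h NR (15.02), as were 8 of the 66 genes, none of them by as much as 2-fold. The gene augustus_masked-nanno_913-abinit-gene-1.39, at 11.93 at 72 h NR, still had 50.2% of its burst, the most of any at that time.

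The fastest return was that of maker-nanno_620-augustus-gene-0.52. It had 12.14, 12.94, 13.42, 13.51 and 12.84 over the N- times and 16.04, 14.70, 13.38, 11.90 and 11.63 over the NR times. Its last NR values were thus below each of its N- values. At 24 h NR it kept 17.0% of the burst, and at 48 h NR it stood 0.94 below 72 h N-. It was the gene least like the others, with a Pearson correlation of 0.66 between its 10 values and the median of the other 65 genes.

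Most of the others had nearly the same shape. The correlation with the median profile of the other genes, across the 10 time points that all genes share, was at least 0.95 in 53 genes and at least 0.98 in 30, with a median of 0.98. Over the 2145 pairs of burst genes the median was 0.96 and the lowest 0.41. Closest to the common shape was augustus_masked-nanno_2981-abinit-gene-0.1, with 12.06, 12.25, 12.52, 12.24 and 12.13 over the N- times and 15.55, 15.51, 14.33, 13.97 and 12.55 over the NR times. The rule and the authors' clustering both favour like shapes, so these correlations are a description.

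The 66 genes lay on 60 contigs, and 10 of them shared a contig with another burst gene. Contig 796 held 4, and contigs 564, 913 and 5280 held 2 each. The 4 genes of contig 796, numbered 0.1, 0.5, 0.6 and 0.8, were all the called genes of that contig. Their bursts, 3.86 to 4.30 or 14.5-fold to 19.7-fold, ranked from place 3 to place 8 among the 66. The gene snap_masked-nanno_796-abinit-gene-0.6 had 9.53, 10.13, 9.87, 10.27 and 10.29 over the N- times and 14.59, 13.16, 11.13, 10.30 and 9.87 over the NR times. The gene snap_masked-nanno_796-abinit-gene-0.8 had 15.38 at 6 h NR and 11.19 at 72 h N-, snap_masked-nanno_796-abinit-gene-0.5 had 11.45 and 7.26, and augustus_masked-nanno_796-abinit-gene-0.1 had 13.80 and 9.95.

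From 24 h to 48 h NR these 4 genes differed by -0.98 to -0.83, against a median of -0.39 in the set. A fall over that interval is not particular to them, since 11 other burst genes were more than 2-fold lower. The 4 genes kept 65.6% to 70.1% of the burst at 12 h NR, 18.6% to 21.4% at 24 h NR and between -6.78% and 0.04% at 48 h NR. The medians of the other 62 genes were 95.4%, 59.5% and 46.6%. Pearson correlations between pairs of the 4 profiles ran from 0.993 to 0.9997. Whether they are separate transcripts, copies of 1 gene or parts of 1 gene was not tested, and reads shared by near-identical copies would not have been counted. The burst gene most like their mean profile was maker-nanno_558-augustus-gene-0.48, on another contig, with a correlation of 0.99 over the 10 time points. It had 18.45, 17.39, 15.73, 15.04 and 14.70 over the NR times and 15.02 at 72 h N-. That comparison was chosen after the values were seen.

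**Figure D4:**
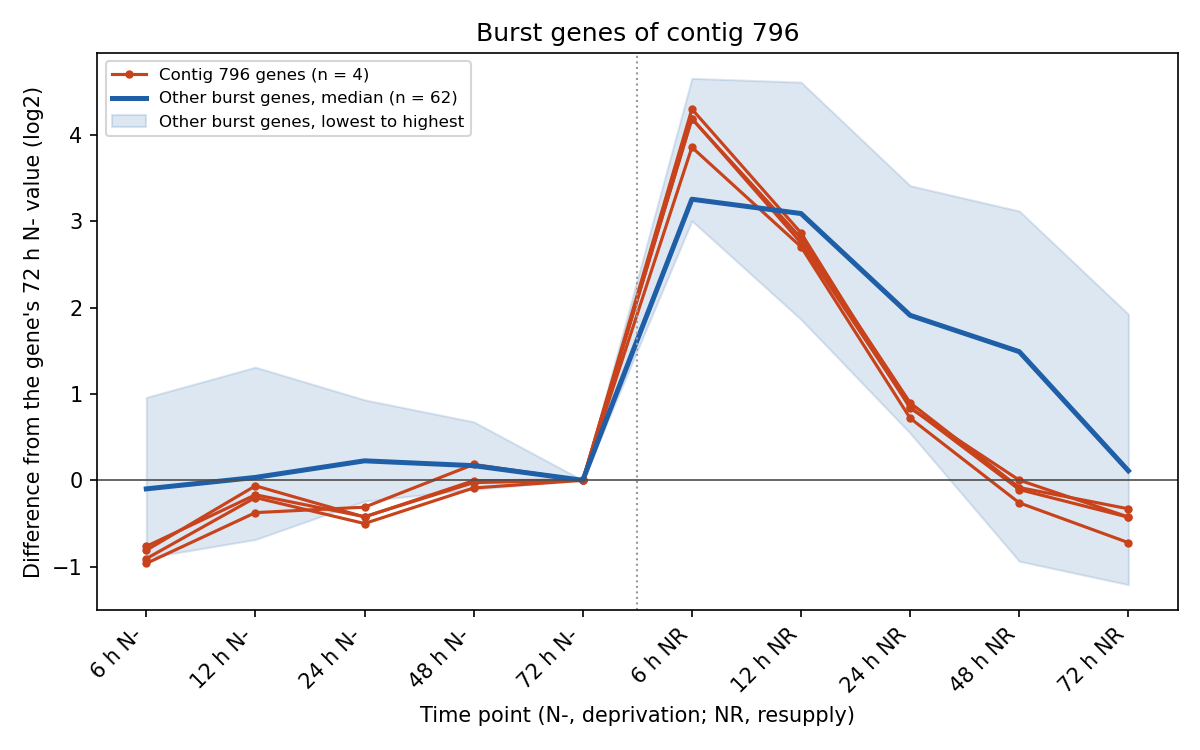
Difference from the gene's own 72 h N- value (vertical axis, log2) at the 10 time points (horizontal axis) for the 4 burst genes of contig 796 (red lines with points) and, for the other 62 burst genes, the median (blue line) and the span from lowest to highest (blue band). The red lines start higher at 6 h NR, cross the blue median by 12 h NR and lie at or below 0 from 48 h NR, apart from 1 gene with 0.04% of its burst left at 48 h NR.

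The pairs on contigs 913 and 5280 were less alike. On contig 564 the pair correlated at 0.99, on contig 913 at 0.92 and on contig 5280 at 0.91. On contig 5280, augustus_masked-nanno_5280-abinit-gene-0.1 had 12.39 at 12 h NR and 12.22 at 6 h NR, whereas snap_masked-nanno_5280-abinit-gene-0.6 had 11.29 and 12.90. The contigs 564 and 913 held 23 and 18 called genes in all, so the burst genes there are a small part of the called genes of the contig.

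The last step also parted the genes. From 48 h to 72 h NR 9 genes differed by less than 0.5, and the other 57 were lower by at least 0.83. The 9 include the 4 genes of contig 796, maker-nanno_558-augustus-gene-0.48, maker-nanno_620-augustus-gene-0.52 and maker-nanno_4613-augustus-gene-0.24. Their median share of the burst left at 48 h NR was 0.04%, and the highest was 43.4%, so most of them had already returned. The limit of 0.5 was set after the values were seen.

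Evidence-based models made up 35 of the 66 genes (53.0%), 46.0% of the other cluster 1 genes and 34.8% of all called genes. Within the set, the median share of the burst left at 24 h NR was 58.9% for the 35 evidence-based models and 59.3% for the 31 predictions.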

How the data were processed

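Per the labels' protocols, single-end 50-base reads of 44 libraries were trimmed with Trimmomatic 0.32 and aligned to the CCMP1779 assembly with STAR 2.3.0e, keeping unique matches. Exon reads were counted with HTSeq 0.6.1, and the authors clustered by k-means, into 4 groups, the genes that passed their DESeq2 test of condition and its interaction with time. The labels speak of 2 biological replicates per time point but list 4 libraries. The deposited values are on a log2 scale, inferred from their range of 1.46 to 19.46. How the authors scaled, transformed and joined the libraries is not stated in the labels, and depth is unknown. The remaining column numbers the rows of the clustering and was not used.

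The design foresaw fits if values per library were found. There were none, so all results are differences and counts, computed with Python 3.11.15, numpy 2.4.6 and pandas 2.3.3. The search for genes that meet the rule was tested on simulated profiles. Each comparison was repeated after the median over the 2489 called genes was subtracted from each column, a median that other clusters move. Neither scale is known to be right. For each property the 2 genes at each end were eligible to be named; others were chosen after seeing values. The set and the properties were chosen with earlier results of these data known. The 11 gene lists named in the design need gene names and give no result. No sequence of these genes was used here.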

Additional observations from a re-analysis of the deposited data

Results flagged for a closer look

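In 1 of the 66 genes NR was more than 2-fold above N- at 6 h and more than 2-fold below it at a later matched hour, in the values as deposited. The share of other genes with such a switch was not computed. Without a 2-fold limit NR was below N- in 6 genes at 48 h and in 26 at 72 h. Among the other 732 cluster 1 genes 241 and 465 were below, and among the 2489 called genes 601 and 791. Relative to the median of the called genes 2 and 23 burst genes were more than 2-fold below. On that scale 21.7% and 59.7% of the other cluster 1 genes were, and 18.3% and 29.7% of all called genes. In maker-nanno_620-augustus-gene-0.52 NR was 3.90 above N- at 6 h, 1.61 below it at 48 h (a difference of -1.61) and 1.21 below it at 72 h (-1.21). Relative to the median of the called genes these differences were 5.07, -2.34 and -2.13. With 1 value per time point the difference between the hours was not tested.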

How the results depend on the processing

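No paired analysis was possible because the tables hold 1 value per time point and no replicate columns, and for the same reason leaving out replicates in turn was not run. Of 91 values of 13 results under an alternative, 49 stayed within 1.5 times the reported count (medians: equal to 2 decimals), 42 moved and 0 changed sign. Most results are counts, which cannot change sign, and the rule favours a positive median burst. With the same genes kept, the size of the set and its contig and model counts cannot move. Under other burst limits the counts largely follow the size of the set. The tally is thus a description and does not measure how firm the results are. Which genes form the set depends on the scale: with the rule applied to centred columns it held 71 genes, 38 of them shared with the 66. The cause of the values that moved was not tested beyond what each setting does by construction.

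With columns centred and the same genes, the median burst was 3.61, 12 genes were more than 2-fold above 72 h N- at 24 h NR and 11 at 48 h NR, 0 and 19 were more than 2-fold from 6 h N- at 12 h and 48 h N-, and the median share of the burst left at 24 h NR was 0.148. With the rule applied to centred columns these were 3.37, 13, 14, 2, 0 and 0.159, and 16 genes shared a contig with another of the set.

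With a burst limit of 2.5 the set held 159 genes with a median burst of 2.88. At 6 h NR 159 exceeded their highest N- value more than 2-fold, 117 were highest at 6 h NR and 148 were within 2-fold of that value at 12 h NR. At 24 h NR 149 were more than 2-fold above 72 h N- and 156 above 6 h N-, and at 48 h NR 119 were above 72 h N-. At 12 h N- 2 were more than 2-fold from 6 h N-, 44 shared a contig and 92 had evidence-based models. With a limit of 3.5 the set held 19 genes with a median burst of 3.82. Of these 19 were above the highest N- value, 16 were highest at 6 h NR and 14 were within 2-fold of it at 12 h NR. At 24 h NR 15 were above 72 h N- and 19 above 6 h N-, and at 48 h NR 14 were above 72 h N-. The median share left at 24 h NR was 0.501, 4 shared a contig and 7 had evidence-based models.

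Keeping only the 65 genes with a mean of at least 6 gave a median burst of 3.30, and 1 gene per contig gave 3.25. With a 1.5-fold limit 11 genes at 12 h N- and 18 at 48 h N- differed from 6 h N-, and with a 3-fold limit 0 and 0 did, while 26 were above 72 h N- at 48 h NR. Depth per library is unknown, so how far counting error limits the weakest genes cannot be given.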
